A study of Mus musculus with 8 samples.

Results

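The genes described here serve the ribbon synapse of inner hair cells, the cells that pass sound signals to the auditory nerve. They are Otof, Dnajc5b, Cacna1d, Cabp2, Ctbp2 and Bsn, chosen by name as calcium channel, calcium sensor, vesicle release and ribbon genes. They make up 6 of the 18193 genes that could be read from the arrays, with 10 of 45101 probe sets. The samples were 8 Affymetrix arrays of organ of Corti RNA, from the strip of hair cells and supporting cells, taken from mice on postnatal day 16. Mutant mice (conditional knockout, cKO) were Atoh1-Cre;Dicer1(flox/flox), and littermate controls were Atoh1-Cre;Dicer1(flox/wt). The floxed allele was Dicer1tm1Bdh and the transgene Tg(Atoh1-cre)1Bfri, so controls also carried Cre and 1 floxed copy, and no group was free of either. The Atoh1 enhancer drives Cre mainly in hair cells. RNA came from the whole dissected strip, so other cells of the tissue kept Dicer1 and added their own transcripts. The apical and the basal part of both cochleae of a mouse were pooled separately, giving 4 groups (control apex, control base, cKO apex, cKO base) of 2 samples each. Apex and base of the same genotype and number were taken to be 1 mouse, which makes 4 presumed mice.

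Inner hair cells release glutamate without pause, from vesicles tethered to an electron-dense ribbon at each active zone. Calcium enters through channels whose pore is encoded by Cacna1d, and their inactivation is slowed by the calcium-binding protein encoded by Cabp2. Otoferlin, from Otof, is the calcium sensor that couples this entry to vesicle fusion and refilling. The ribbon is built of RIBEYE, a product of Ctbp2 made from its own start site, and is anchored by bassoon, from Bsn. Dnajc5b encodes a member of the cysteine string protein family, cochaperones that sit on vesicles. Dicer1 makes mature microRNAs, and hair cells are rich in the microRNAs of the miR-183 cluster.

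The mature forms of that cluster are shown because Dicer1 makes them from their precursors; their levels were not analysed here. The sequences are from RefSeq (GRCm38.p6, chromosome 6, minus strand), with the seed, bases 2 to 8, in capitals.
mmu-miR-96-5p: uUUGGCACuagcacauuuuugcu
mmu-miR-182-5p: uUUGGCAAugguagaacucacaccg
mmu-miR-183-5p: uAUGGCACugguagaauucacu
No seed is identical among the 3, and those of mmu-miR-96-5p and mmu-miR-182-5p share all but the last base.

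The genes lie on 6 chromosomes of GRCm38.p6. Otof lies on chromosome 5 (30367066 to 30462730), Cabp2 on 19 (4081469 to 4087340), Dnajc5b on 3 (19508591 to 19610862), Cacna1d on 14 (30039941 to 30491156), Ctbp2 on 7 (132986998 to 133124009) and Bsn on 9 (108096022 to 108190419). RefSeq promoter windows, from 250 bases before to 50 after an annotated start, were at hand for 4 of the 6 genes, 7 windows in all. Those of Cabp2 and Ctbp2 are shown, Cabp2 as the gene with the widest genotype difference in the base with all samples and Ctbp2 for its separate start sites. Capitals mark matches to the E-box, CANNTG, the class of site that hair cell bHLH factors such as Atoh1 bind.
Cabp2, plus strand, chr19:4082238-4082537: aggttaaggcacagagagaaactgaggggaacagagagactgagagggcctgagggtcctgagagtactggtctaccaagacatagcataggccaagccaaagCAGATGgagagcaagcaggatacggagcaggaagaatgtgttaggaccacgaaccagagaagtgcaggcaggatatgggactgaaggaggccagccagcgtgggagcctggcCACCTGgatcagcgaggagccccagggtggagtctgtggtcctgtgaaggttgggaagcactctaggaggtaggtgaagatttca
Cabp2, plus strand, chr19:4083269-4083568: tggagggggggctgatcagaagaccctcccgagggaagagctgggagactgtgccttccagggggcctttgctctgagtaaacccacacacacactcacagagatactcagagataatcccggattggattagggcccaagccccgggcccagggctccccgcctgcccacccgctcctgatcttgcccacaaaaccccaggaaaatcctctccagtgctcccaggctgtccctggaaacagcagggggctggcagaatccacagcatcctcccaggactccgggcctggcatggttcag
Ctbp2, minus strand, chr7:133015198-133015497: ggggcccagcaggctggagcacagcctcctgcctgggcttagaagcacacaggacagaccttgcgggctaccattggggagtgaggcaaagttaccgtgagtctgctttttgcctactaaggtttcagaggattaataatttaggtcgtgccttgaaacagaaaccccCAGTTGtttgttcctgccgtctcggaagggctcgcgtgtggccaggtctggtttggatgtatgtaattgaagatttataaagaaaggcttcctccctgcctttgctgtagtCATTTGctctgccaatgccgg
Ctbp2, minus strand, chr7:133081811-133082110: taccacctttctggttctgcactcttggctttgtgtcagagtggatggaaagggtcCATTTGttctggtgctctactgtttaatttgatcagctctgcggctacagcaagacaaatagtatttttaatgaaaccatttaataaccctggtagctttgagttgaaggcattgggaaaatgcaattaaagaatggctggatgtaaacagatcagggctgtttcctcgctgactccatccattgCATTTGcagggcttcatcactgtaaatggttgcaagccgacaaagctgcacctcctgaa
The first Cabp2 window held 2 E-boxes and the second none, and each Ctbp2 window held 2. Of 32851 windows searched on both strands, 72.3% held at least 1, so a match is common. TATAAA had 2 matches in the Ctbp2 window at 133015198, overlapping on opposite strands of a single stretch. It was in neither Cabp2 window (13.6% of all windows). The narrower E-box CAGCTG, the GFI1 core AAATCA, the POU core ATGCAAAT and the CRE TGACGTCA had no match in these 4 windows. The Ctbp2 starts lie 66613 bases apart, and which of them the probe sets report on was not tested.

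The deposited values are MAS5 signals on a linear scale, each array scaled to a trimmed mean of 500, and median signals ran from 67.3 to 100.4. Log2 values of any 2 samples correlated across 13221 tested genes at r = 0.925 to 0.978. Dicer1 itself had signals from 525 to 759 over the 8 samples with no separation of the genotypes, and the place of its probes relative to the floxed exons is not given. Control base replicate 1 stood apart from the other basal samples in its tissue makeup. Its summed signal over 10 stria vascularis markers was 21147, against 57149, 57339 and 51606 in control base replicate 2 and cKO base replicates 1 and 2. Over 13 spiral ganglion neuron markers its sum was the highest of all samples at 71206, while control base replicate 2 had the lowest at 23128. Xist, a female-specific transcript, was at 5968 and 5365 in control mouse 1 and at most 300.5 in the other mice. Of 22 hair cell markers, 18 were above the signal filter (38.7), which 13221 of 18193 genes passed. Other lists passed it too (14 of 14 supporting cell and 13 of 14 neuron markers), so the count does not test the tissue label. Slc26a5, the outer hair cell motor, was under the signal filter, and no signal was read here for the inner hair cell glutamate transporter Slc17a8.

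All 6 synapse genes passed the filter by 1 probe set or more. Otof, which couples calcium to fusion, had signals of 612 and 493 in control apex, 413 and 312 in cKO apex, 493 and 289 in control base, and 125 and 175 in cKO base. Both cKO samples were below both controls in each region, and the cKO basal samples were the lowest of all 8. In the base Otof was 2.55-fold lower in the cKO (log2 difference -1.35 ± 0.32, SE of the limma fit), the 38th lowest difference of 13221 genes. In the apex the difference was -0.61 ± 0.32. Neither passed the test over all genes (limma with Benjamini-Hochberg adjustment, adjusted p = 1.00 for each). In bulk tissue, fewer cells of a type and less RNA per cell cannot be told apart, for this and every difference below.

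Dnajc5b, the vesicle cochaperone, had signals of 263 and 249.5 in control apex, 173 and 243 in cKO apex, 216 and 141 in control base, and 89.2 and 83.0 in cKO base. Its basal cKO samples were close to each other and under all other samples, while the apical groups nearly met. The genotype difference was -1.02 ± 0.30 (log2, SE) in the base, a 2.03-fold lower signal, and in the apex it was -0.32 ± 0.30 (limma, adjusted p = 1.00 for each). Base against apex gave -1.25 ± 0.30 in the cKO and -0.55 ± 0.30 in controls (adjusted p = 0.189 and 0.706).

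Cabp2, the calcium sensor that keeps the channels open, had the widest basal genotype difference of the 6 with all samples in the fit; without control base replicate 2 that of Otof was wider (-1.73 against -1.54). Its signals were 383 and 448 in control apex, 439 and 324 in cKO apex, 320.4 and 299 in control base, and 84.9 and 143 in cKO base. The apical groups overlapped, and the basal cKO samples were below every other sample. In the base Cabp2 was 2.81-fold lower in the cKO (-1.49 ± 0.30, log2, SE, adjusted p = 1.00, limma), the 19th lowest difference and the 8th smallest p of 13221 genes. In the apex the difference was -0.14 ± 0.30, and it was 0.083 without cKO apex replicate 2. The genotype difference in the base minus that in the apex was -1.35 ± 0.42, the 22nd smallest p of 13221, and it did not pass the test (adjusted p = 1.00, limma).

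Cacna1d, the channel pore, went the other way between genotypes. The brighter of its 2 probe sets had signals of 319 and 332 in control apex, 519.5 and 446 in cKO apex, 251 and 238 in control base, and 322 and 244 in cKO base. Both apical cKO samples were above all other samples, and the basal groups overlapped. In the apex its signal was 1.48-fold higher in the cKO (log2 difference 0.56 ± 0.22, SE), and the basal difference was 0.20 ± 0.22 (limma, adjusted p = 1.00 for each). The dimmer probe set ran from 51.1 to 82.2 and gave -0.26 ± 0.38 in the apex and 0.13 ± 0.38 in the base. The brighter one carries the name suffix _s and is of a design class that can match transcripts of more than 1 gene, and the probe sets disagreed in sign in the apex.

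The ribbon genes showed no separation of the genotypes in the base. For Ctbp2 the brighter probe set had signals of 920.0 and 846 in control apex, 814 and 847 in cKO apex, 846 and 1132 in control base, and 642 and 973 in cKO base. All groups overlapped with their neighbours, and the widest spread lay between the 2 basal samples of a genotype. The cKO differed from controls by -0.09 ± 0.24 (log2, SE) in the apex and by -0.31 ± 0.24 in the base (limma, adjusted p = 1.00 for each). The other Ctbp2 probe set gave -0.36 ± 0.27 and 0.05 ± 0.27. Neither probe set was assigned here to RIBEYE or to the shorter nuclear corepressor that the gene also encodes.

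Bsn was read from 1 probe set, since the other 2 did not exceed a signal of 19.8 in any sample and lay under the filter. Its signals were 215 and 151 in control apex, 317 and 240.1 in cKO apex, 283 and 87.1 in control base, and 165 and 112 in cKO base. The apical cKO samples were above both apical controls, while the basal controls lay on either side of the cKO. The cKO differed from controls by 0.61 ± 0.54 (log2, SE) in the apex and by -0.21 ± 0.54 in the base (limma, adjusted p = 1.00 for each). The basal value turned to 0.64 without control base replicate 1 and to 0.074 without cKO base replicate 2, and was -1.06 without control base replicate 2. Bsn is also a presynaptic scaffold of neurons. The neuron marker sum was 71206 where basal control Bsn was 283 and 23128 where it was 87.1; its part in the result was not tested.

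**Figure D1:**
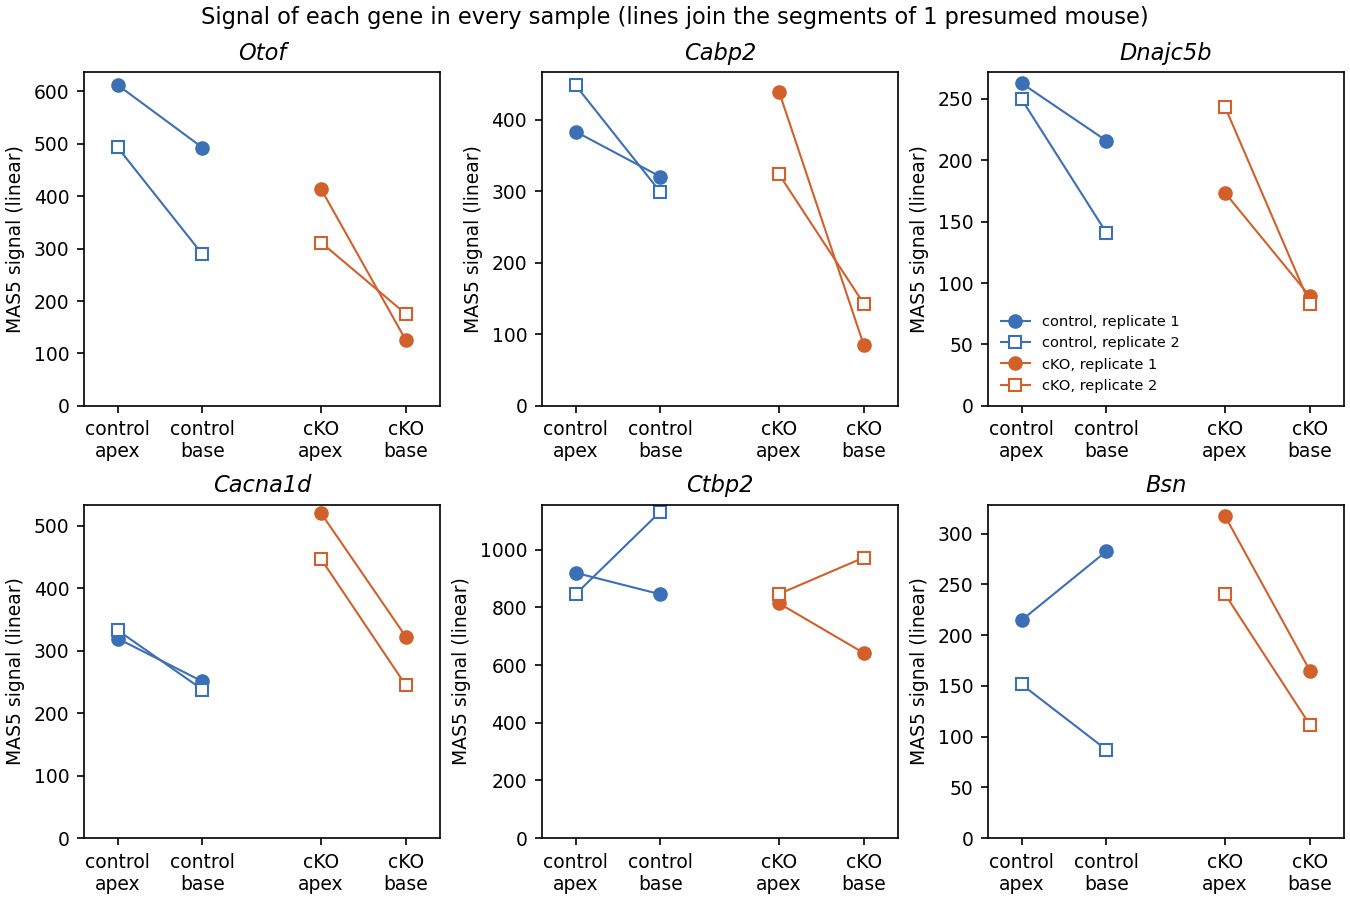
MAS5 signal (linear, y axis) of each synapse gene in control (blue) and cKO (orange) samples; filled circles are replicate 1, open squares replicate 2, and lines join apex and base of 1 presumed mouse. Otof, Cabp2 and Dnajc5b are lowest in the 2 cKO basal samples (125 and 175 for Otof). Cacna1d (brighter probe set) is highest in the cKO apex, and Ctbp2 and Bsn have no common course.

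Set against all genes, none of the 6 passed limma's adjusted threshold between genotypes in either region (0 of 13221 genes, 0%, in the apex and in the base). At an unadjusted p under 0.05, 3 of the 6 were lower in the cKO base (Cabp2, Otof and Dnajc5b), where 1.48% of tested genes were lower at that level. In the apex 1 of the 6, Cacna1d by its brighter probe set, was higher, against 1.10% of tested genes. In the base 3 of the 6 had cKO signals below both controls with no overlap, against 15.6% of tested genes; in the apex 2 of the 6 did (16.2%) and another 2 were above both controls (15.0%). The median genotype difference of the 6 was -0.66 in the base and -0.11 in the apex, where the median of all tested genes was 0.00 in both. The basal median was -1.19 without control base replicate 2, and the apical one was -0.016 without cKO apex replicate 2, with 3 of the 6 below 0. With 1 mean per presumed mouse, Otof was at -0.98 ± 0.23, Cabp2 at -0.81 ± 0.18 and Dnajc5b at -0.67 ± 0.23 in the cKO (log2, SE), all with adjusted p = 0.999. Both cKO mice lay below both control mice for these 3, against 15.5% of tested genes.

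**Figure D2:**
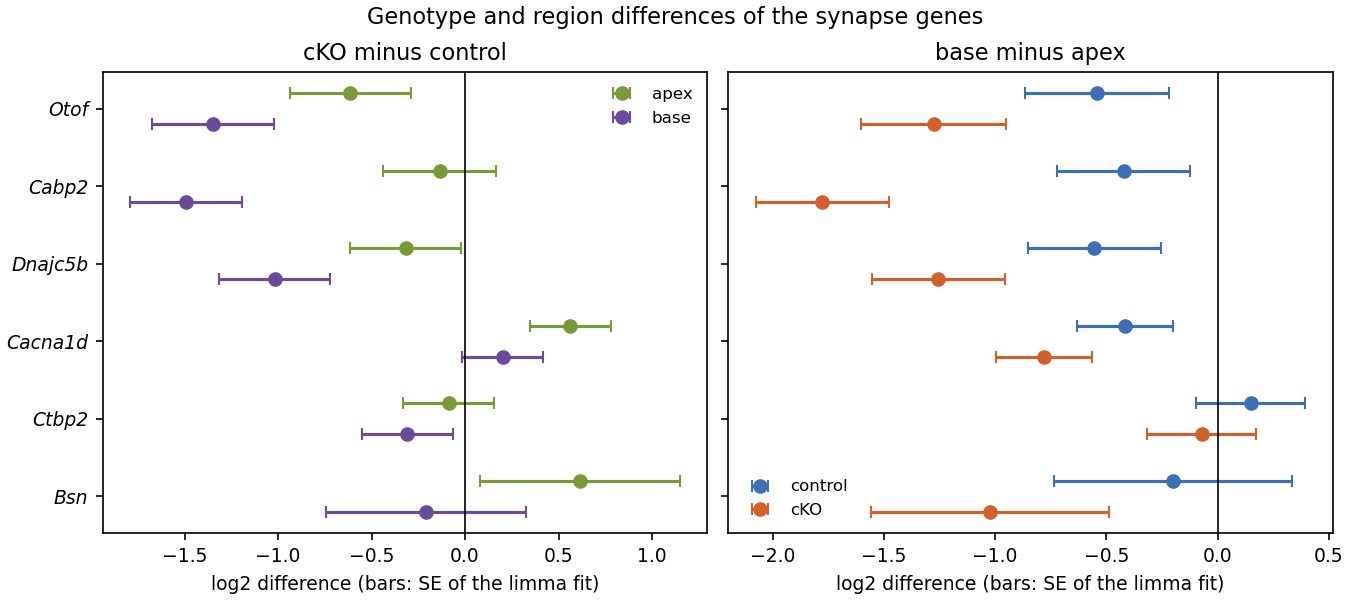
Log2 difference (x axis) of each synapse gene between genotypes in apex and base (left) and between base and apex in each genotype (right); points are group differences and bars the SE of the limma fit. In the left panel Cabp2 (-1.49), Otof (-1.35) and Dnajc5b (-1.02) lie farthest from 0 in the base, and in the right panel the cKO values lie to the left of the control values for all 6 genes.

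The second axis of the design, base against apex, gave lower signals in the base for most of these genes. Within presumed mice, Otof, Cabp2, Dnajc5b and, by its brighter probe set, Cacna1d were lower in the base of all 4, as were 17.0% of tested genes. Cabp2 was 1.20-fold and 1.50-fold lower in the base of the 2 control mice, and 5.17-fold and 2.27-fold lower in the 2 cKO mice. Otof was 1.24-fold and 1.71-fold lower in the control mice, and 3.30-fold and 1.78-fold lower in the cKO mice. Dnajc5b was 1.22-fold and 1.77-fold lower in the control mice, and 1.94-fold and 2.93-fold lower in the cKO mice. Base minus apex was lower in both cKO mice than in both controls for these 3 genes and for Cacna1d (brighter probe set) and Bsn, 5 of the 6, against 14.5% of tested genes. For Otof the nearest mice were at -0.83 and -0.77 on the log2 scale. The difference between genotypes did not pass the test for any of the 6 or for any gene (0 of 13221, 0%, limma).

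Cacna1d was 1.27-fold and 1.40-fold lower in the base of the controls and 1.61-fold and 1.83-fold lower in that of the cKO mice by the brighter probe set. The dimmer one was higher in the base of control mouse 2 (63.3 in the apex, 82.0 in the base) and of cKO mouse 1 (52.3 and 73.9). Bsn was 1.32-fold higher in the base of control mouse 1 and 1.74-fold, 1.92-fold and 2.15-fold lower in that of the other 3 mice. By its brighter probe set, Ctbp2 was higher in the base of mouse 2 of each genotype (1.34-fold in the control, 1.15-fold in the cKO). It was lower in that of mouse 1 (1.09-fold and 1.27-fold). The other Ctbp2 probe set was higher in the base of cKO mouse 2 (365 in the apex, 474 in the base) and lower in that of the other mice, as in control mouse 2 (463 and 411). Ctbp2 therefore had no regional course shared by the mice with either probe set.

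Over both genotypes the fit gave -1.10 ± 0.21 for Cabp2 (log2 base minus apex, SE, adjusted p = 0.0617), -0.90 ± 0.21 for Dnajc5b (0.0906), -0.91 ± 0.23 for Otof (0.112) and -0.60 ± 0.15 for Cacna1d (0.114). The dimmer Cacna1d probe set gave 0.036 ± 0.27, and the mean of both probe sets -0.28. None of the 6 passed, while 157 of 13221 genes did (1.19%). At an unadjusted p under 0.05 these 4 were lower, against 8.54% of tested genes. With the presumed mouse as a random block, Cabp2 and Dnajc5b were called lower in the base (adjusted p = 0.0305 and 0.0446), in a fit that called 1.92% of tested genes lower, and with it as a fixed block none was. Without control base replicate 1, the sample low in stria markers, 4 of the 6 were called: Otof (-1.10), Cabp2 (-1.12), Dnajc5b (-1.06) and Bsn (-1.04). That fit called 1518 genes, 815 of them lower (6.16% of tested genes). In the cKO alone Cabp2 was at -1.78 ± 0.30 and Otof at -1.28 ± 0.32 (adjusted p = 0.1 and 0.204), and 11 genes passed (0.0832%). There 5 of the 6, all but Ctbp2, had lower signals in the base with no overlap, against 25.6% of tested genes. Cabp2 was called there with the random block (adjusted p = 0.0484, 0.363% of tested genes called lower). It was also called without control base replicate 1 (0.961% called lower) and, with Otof, without control base replicate 2 (1.01%). In controls alone 0 of 13221 genes passed (0%), and 4 of the 6 had lower signals in the base with no overlap, against 16.9% of tested genes.

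Hair cell genes in general also had lower values in the base, and so did those of some other cell types. Over both genotypes, 13 of 13 neuron (median -0.40), 11 of 14 supporting cell (-0.67) and 6 of 6 myelin and Schwann cell markers (-0.15) were lower there. It was 1 of 10 stria (median 1.50), 1 of 9 fibrocyte and bone (0.73) and 2 of 8 blood markers (0.42). The neuron count rested on 1 sample. Without control base replicate 2, 5 of 13 neuron markers were lower in the base (median 0.038), against 10 of 14 supporting cell markers (-0.58). The part of tissue makeup in this was not tested. Of 18 hair cell markers above the filter, all 18 had lower values in the base over both genotypes, 6 of them past the test (Acbd7, Smpx, Gfi1, Pcp4, Strc and Fscn2), with a median of -1.07. Acbd7, an acyl-CoA-binding protein gene, was at -2.11 ± 0.18 (log2, SE, adjusted p = 0.0141), and Gfi1, a hair cell transcription factor, at -2.01 ± 0.22 (adjusted p = 0.017). The count of 6 past the test moved with single samples, as did the count over all genes. With 1 sample left out, the median ran from -1.19 (without cKO apex replicate 2) to -1.01 (without cKO apex replicate 1). The fewest markers lower in the base were 15 of the 18, without control base replicate 2. Between genotypes in the base 13 of the 18 were lower in the cKO, with a median of -0.67 and 0 past the test. The lowest in p were Pcp4 (-1.11 ± 0.18), Acbd7 (-1.39 ± 0.25), the muscle-type cytoskeletal protein gene Smpx (-1.01 ± 0.24) and the actin bundler Fscn2 (-1.40 ± 0.37). Myo7a, a hair bundle myosin, was at -0.39 ± 0.31 and Myo6, the other hair cell myosin of the list, at 0.05 ± 0.17.

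The synapse genes were therefore also expressed relative to hair cell genes on the same array. Of 11 reference genes, 10 were above the filter (Myo7a, Myo6, Gfi1, Pou4f3, Espn, Lhfpl5, Pcdh15, Cdh23, Ush1c and Tmc1). Their mean log2 value was 0.22 higher in the cKO apex and 0.31 lower in the cKO base than in the controls (differences 0.22 and -0.31). Its base minus apex value was -0.76 in controls and -1.29 in the cKO. These values have no test.

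Against this reference the genotype difference of Otof was -0.84 in the apex and -1.04 in the base, so that it was of similar size in both regions. By sample, Otof minus the reference was 1.26 and 0.59 in control apex, 0.18 and -0.01 in cKO apex, 1.66 and 0.62 in control base, and -0.15 and 0.34 in cKO base. All 4 cKO samples lay below all 4 controls, as for 0.0908% of tested genes on this scale, but not with the wider reference given below. The size of that share also reflects the reference, which was itself lower in the base. On this scale 67.5% of tested genes had every basal sample above every apical one, so those genes cannot meet this rule. Cabp2 minus the reference was 0.58 and 0.45 in control apex, 0.27 and 0.04 in cKO apex, 1.04 and 0.67 in control base, and -0.71 and 0.05 in cKO base. The 4 cKO samples again lay below the 4 controls, and the difference was -0.36 in the apex and -1.18 in the base. Dnajc5b gave -0.54 and -0.71, with an overlap in the apex and none in the base, where 1.87% of tested genes had both cKO samples below both controls. As deposited that share was 15.6%, and the reference itself was lower in both cKO basal samples than in both basal controls. The separation of Dnajc5b in the base also depended on the reference, as given below. Cacna1d gave 0.34 and 0.51 by its brighter probe set, with both cKO samples above both controls in each region (1.54% of tested genes). Its dimmer probe set, at -0.26 in the apex and 0.13 in the base as deposited, was not set against the reference. Ctbp2 (brighter probe set) gave -0.31 and 0.00, and Bsn 0.39 and 0.10, both with overlap. With the 18 hair cell markers as the reference, which were lower by a mean of -0.60 in the cKO base, the basal values were -0.75 for Otof, -0.89 for Cabp2, -0.42 for Dnajc5b and 0.80 for Cacna1d. The apical values were then -0.75, -0.28, -0.46 and 0.42. On this wider scale the genotypes no longer separated fully for Otof, though they did within each region. Control apex replicate 2 (Otof 8.945, marker mean 9.170, log2) lay just below cKO base replicate 2 (7.454 and 7.669). Cabp2 stayed fully apart. Dnajc5b overlapped in the base, with control base replicate 2 (7.139 and 8.202) just below cKO base replicate 1 (6.479 and 7.538). Leaving out any 1 reference gene kept the sign of the Otof, Cabp2, Dnajc5b and, by its brighter probe set, Cacna1d differences. Otof in the base then ran from -1.14 to -0.91, and Cabp2 in the base from -1.28 to -1.05.

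Along the cochlea the same scale gave another picture. Base minus apex of Otof was 0.22 in controls and 0.01 in the cKO relative to the reference, and that of Dnajc5b was 0.20 and 0.03. The cKO mice went opposite ways behind these means. Otof was at 0.18 in the apex and -0.15 in the base of cKO mouse 1, and at -0.01 and 0.34 in mouse 2. Dnajc5b was at -1.07 and -0.64 in cKO mouse 1, and at -0.37 and -0.73 in mouse 2. With the hair cell marker list as reference, base minus apex was 0.29 and 0.30 for Otof, and 0.28 and 0.32 for Dnajc5b. Cabp2 was at 0.34 in controls and -0.49 in the cKO, and at 0.41 and -0.20 with the hair cell marker list. Its cKO value came from mouse 1, at 0.27 in the apex and -0.71 in the base, while mouse 2 was at 0.044 and 0.049. Ctbp2, by its brighter probe set, was at 0.91 and 1.22, with every basal sample above every apical one (67.5% of tested genes). Its signal as deposited differed by 0.15 and -0.07, and by -0.30 and 0.11 with the other probe set. Ctbp2 is also transcribed in many other cell types as a nuclear corepressor.

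**Figure D3:**
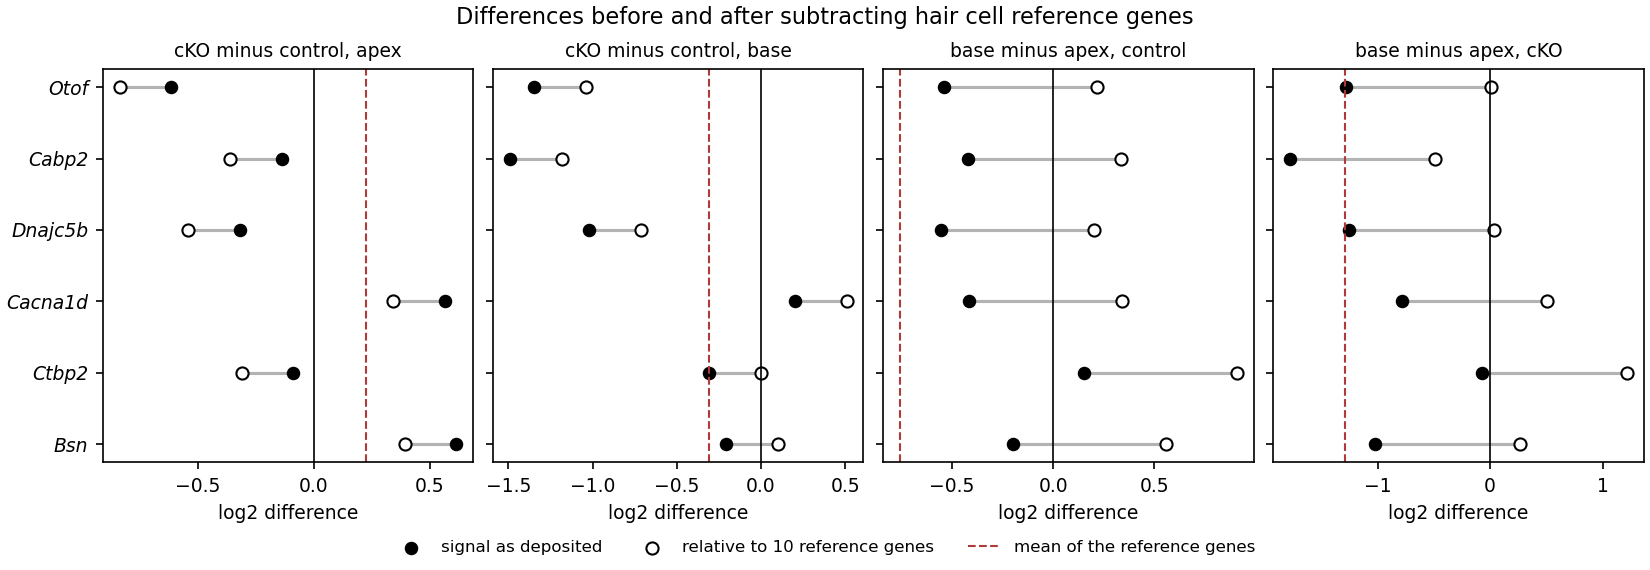
Log2 difference (x axis) of each synapse gene in 4 comparisons, as deposited (filled) and after subtracting the mean of 10 hair cell reference genes on the same array (open); the dashed line is the difference of the reference itself. Otof stays at -0.84 and -1.04 between genotypes after the subtraction (-0.75 in both regions with the hair cell marker list as reference). Its base minus apex values move to 0.22 in controls and 0.01 in the cKO (0.29 and 0.30 with that list).

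Across the 8 samples, Otof, Cabp2 and Dnajc5b had the most similar profiles among the 6. Pearson's r of log2 signal was 0.93 for Otof and Cabp2, 0.91 for Otof and Dnajc5b, and 0.87 for Cabp2 and Dnajc5b. Cacna1d and Bsn came next at 0.66, and the lowest pair was Ctbp2 and Bsn at -0.51. Among the 13220 other genes ranked by likeness to Otof, Cabp2 stood 17th and Dnajc5b 36th. These values describe 8 samples of 4 presumed mice that share their mouse and tissue makeup, and carry no test.

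The genes of closest profile to Otof were Zfp846 (r = 0.97), Macrod2 and Gm13032, and to Cabp2 Atp2a3 (r = 0.98), which encodes an endoplasmic reticulum calcium pump, Zfp846 and Igbp1. Dnajc5b was followed by Zbed4 (r = 0.97), Tcte1 and Rtraf, Cacna1d by Fam222b (r = 0.99), Nup210 and Btbd19, Ctbp2 by Ecd (r = 0.94), Leng1 and Cwc22, and Bsn by Pik3cb (r = 0.96), Cct3 and Abcb4. For the mean profile of the 6 genes the closest were Zfp78 (r = 0.97), Gm13032, Rnf150, Six4, Pcp4, Pan2, Chtop, Tspan12, Mtmr11 and Ccdc69 (r = 0.95). Pcp4, a calmodulin regulator, is also on the hair cell list; its signal ran from 1482 to 6114.

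**Figure D4:**
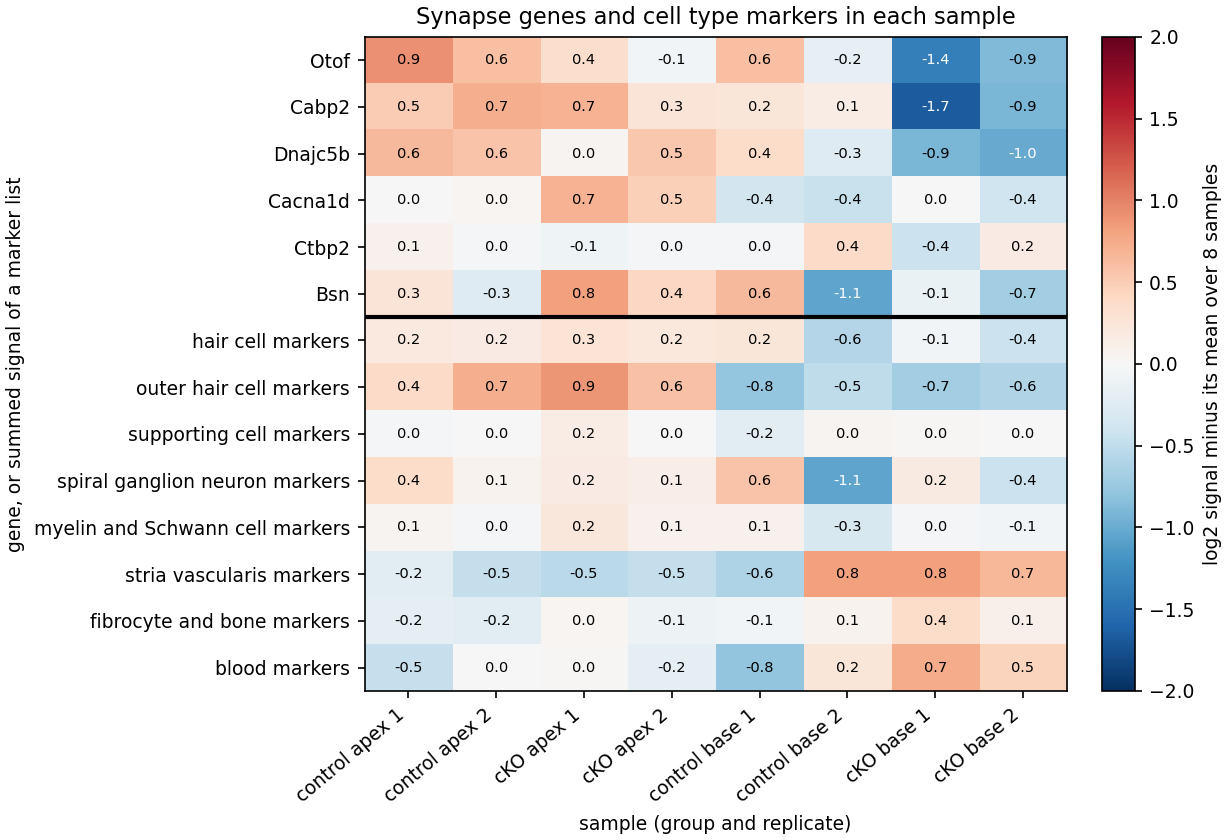
Log2 signal minus its mean over the 8 samples (colour and number) for the 6 synapse genes (above the line) and for the summed signal of 8 cell type marker lists (below it), with samples in columns. Otof, Cabp2 and Dnajc5b are low in both cKO basal samples, whereas stria vascularis markers are high in control base 2 and both cKO basal samples, and neuron markers are lowest in control base 2.

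The basal controls differed in stria and neuron markers, so the basal genotype differences were read without each sample. Leaving out control base replicate 1 compared the cKO base with the sample whose stria sum (57149) was like those of the cKO (57339 and 51606). Otof was then at -0.96, Cabp2 at -1.44 and Dnajc5b at -0.71. Without control base replicate 2 they were at -1.73, -1.54 and -1.33. Without cKO base replicate 1 they were at -1.11, -1.12 and -1.07, and without cKO base replicate 2 at -1.59, -1.87 and -0.97. Blood marker sums were 2178 and 4442 in the basal controls and 6279 and 5136 in the basal cKO samples, and the part of blood and stria content in the basal differences was not tested beyond these fits. The sign was the same in each of these fits, none was called, and a lone sample was taken to vary like the other groups.

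**Figure D5:**
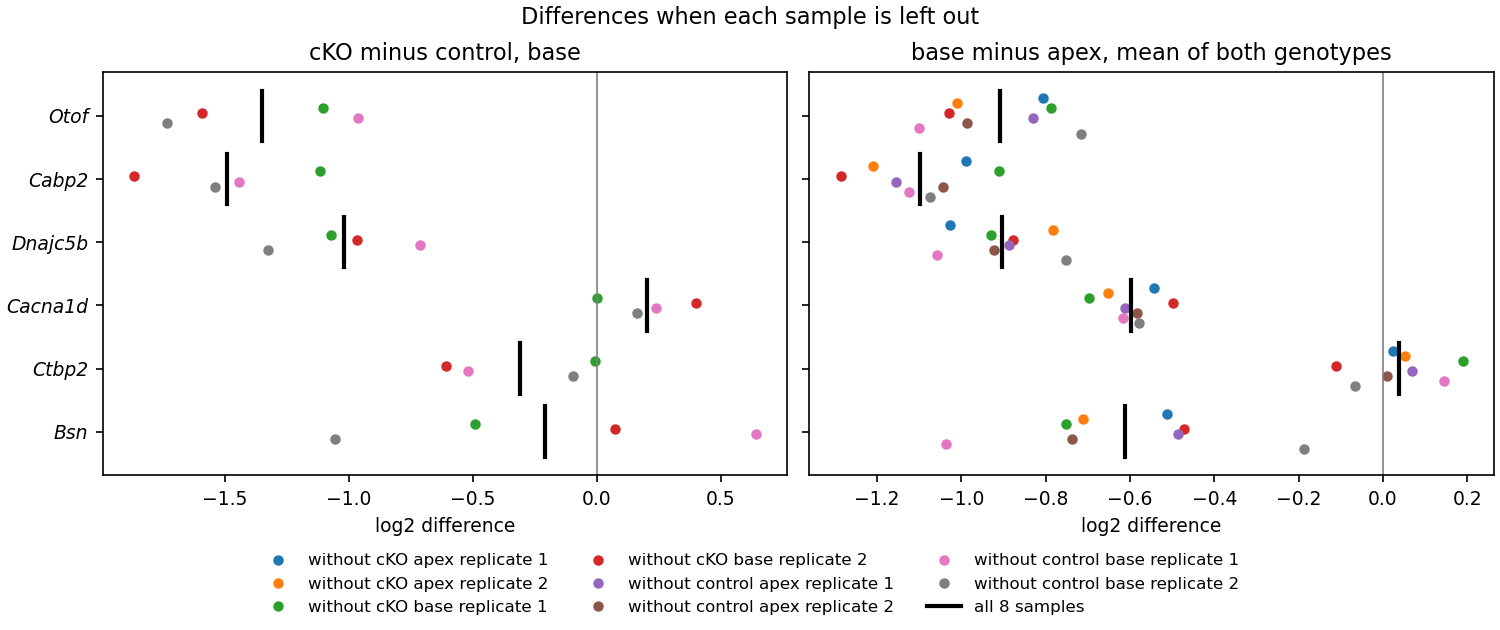
Log2 difference (x axis) of each synapse gene with all 8 samples (black bar) and with 1 sample left out (coloured points), for cKO minus control in the base (left, basal samples left out) and for base minus apex over both genotypes (right, any sample left out). Otof, Cabp2 and Dnajc5b stay below 0 at every point, while Bsn crosses 0 in the left panel.

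Among other genes of synaptic transmission, in the base 4 of 21 active zone and ribbon scaffold genes had lower values in the cKO (median 0.17), as did 6 of 16 calcium channel subunit and EF-hand sensor genes (median 0.09) and 10 of 38 vesicle filling and release genes (median 0.09). For ferlin and otoferlin partner genes it was 3 of 10 (median 0.06), and for postsynaptic and efferent genes 7 of 12 (median -0.08). No gene of these 5 lists passed in either region. The basal counts turned with 1 library. Without control base replicate 2, 14 of 21 scaffold genes (median -0.38), 13 of 16 calcium genes (-0.34), 25 of 38 vesicle genes (-0.26) and 10 of 12 postsynaptic and efferent genes (-0.26) had lower values in the cKO. It was 2, 3, 8 and 3 of them without control base replicate 1 (medians 0.69, 0.42, 0.31 and 0.32). Without cKO base replicate 1 the scaffold, calcium and vesicle medians were -0.079, -0.20 and -0.058. The median over 13 neuron markers was -0.74 without control base replicate 2 and 0.82 without control base replicate 1, and its part in these counts was not tested. Pclo, which encodes the bassoon relative piccolo, was at 0.48 ± 0.66. Neurons of the tissue also express many genes of these lists.

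Among scaffold genes Unc13a, a vesicle priming factor, had the smallest p in the base (1.30 ± 0.51, log2 cKO minus control, SE), followed by Erc1, an active zone scaffold (0.41 ± 0.27). Of the calcium genes, Cacna1c, the pore of another L-type channel, was at 0.87 ± 0.34, and Cacna1f, the retinal L-type pore, at -1.58 ± 0.81. Of the vesicle genes, the fusion protein genes Stx2 and Cplx2 were at -0.44 ± 0.19 and 0.31 ± 0.25. Dnajc5, the widely expressed relative of Dnajc5b, was at 0.18 ± 0.13 in the apex. Myo6, which binds otoferlin, was at 0.05 ± 0.17 in the base and 0.19 ± 0.17 in the apex. All had adjusted p = 1.00 (limma).

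Along the cochlea, 16 of 21 scaffold genes, 13 of 16 calcium genes and 22 of 38 vesicle genes had lower values in the base over both genotypes, with medians of -0.28, -0.38 and -0.08 and 0 past the test in each. Chrna9, a subunit of the efferent acetylcholine receptor of hair cells, was past the test in the postsynaptic and efferent list (-3.23 ± 0.46, log2 base minus apex, SE, adjusted p = 0.0299). The call of Chrna9 moved with single samples, as did the count over all genes. The others named by the smallest p were Unc13c, a priming factor (-0.70 ± 0.17, adjusted p = 0.0961), Cabp7, a relative of Cabp2 (-0.59 ± 0.17, adjusted p = 0.145), Syt1, the calcium sensor of neuronal release (-0.81 ± 0.20, adjusted p = 0.11), and the syntaxin Stx3 (-0.48 ± 0.13, adjusted p = 0.139). Without control base replicate 1, the sample highest in neuron markers, 7 genes of the scaffold list and 7 of the vesicle list were called lower in the base, in a fit that called 6.16% of tested genes lower. Without control base replicate 2, the sample lowest in them, 9 of 21 scaffold, 8 of 16 calcium and 11 of 38 vesicle genes had lower values there (medians 0.07, 0.02 and 0.08) and none was called; the part of the neuron content in this was not tested.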

How the data were processed

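Signals of 45101 probe sets, 64 of them array controls, were deposited for 8 samples. Per the labels' protocols, labelling took 75 to 125 ng of RNA through 2 rounds. Each deposited value is a linear intensity, and every array has a trimmed mean (2% off each end) of 500. MAS5 and affy 1.26 appear, without role or order, in the submitters' processing notes. Detection calls were not used here. The number of arrays limits the precision.

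Probe sets were assigned by the supplied annotation: 34945 had 1 gene, 932 several (none listing a synapse gene) and 9160 none. A gene was read from its probe set of highest mean log2 value, without pseudocount. The test took 13221 genes whose mean log2 value reached the 40th percentile over probe sets (5.27, or 38.7 as a signal). limma 3.58.1 (R 4.3.3) was fitted to 4 group means with an intensity trend (4 residual degrees of freedom); the mean of each presumed mouse was fitted separately. Tests were two-sided, adjusted by Benjamini-Hochberg over all genes, threshold 0.05. Nothing in the labels says more on how replicates were raised than that each came from a single mouse.

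Replicate numbers pair apex and base of a genotype, since the design ties a replicate to 1 mouse. Deviations of same-numbered samples correlated at r = 0.339 in controls and 0.0683 in cKO. Numbers are only shared across genotypes (r = -0.0312 in the apex, 0.177 in the base).

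The genes, lists and alternatives were chosen with earlier results of these data known. Named were all 6 genes, genes of a list past the threshold, up to 4 others of smallest p, Dicer1 in every sample, and the genes of closest profile (3 per gene, 10 for the mean). Myo7a, Myo6, Dnajc5, Pclo and, in the base, Cplx2, and Xist and Slc26a5 were named after their values were seen, and Slc17a8 without a value. The fit was tested on simulated data. Alternatives covered the filter, pseudocount, normalization, probe set choice, variance model, pairing, samples fitted and each sample left out.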

Additional observations from a re-analysis of the deposited data

How the results depend on the processing

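Counts of called genes moved most between base and apex. In the cKO 11 genes passed (0 without a filter, with quantile normalization, centring on the 75th percentile, every probe set, no intensity trend or the mouse as a fixed replicate block; 7 with the mean of probe sets; 81 with the mouse as a random replicate block; 449 with the compared groups alone), and 0 to 316 when a sample was left out. Over both genotypes 157 passed (70 with no trend, 527 with the random and 255 with the fixed replicate block; 0 to 1518 leaving out a sample). In controls 0 passed (0 to 551 leaving out a sample). Between genotypes 0 passed; 1 did with no trend in each region, 0 to 37 in the base and 0 to 9 for mouse means leaving out a sample. The replicate block over the shared number called 0 genes between genotypes.

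Of the synapse genes, Otof and Cabp2 in the cKO base against apex were called in the fit of the compared groups alone (adjusted p = 0.0493 and 0.0283), and the block changed no call beyond those given with the results. Signs turned with the mean of probe sets for Ctbp2 base minus apex (-0.074 in controls, 0.021 in the cKO, -0.026 over both) and for the difference of genotype effects (0.011 for Cacna1d, 0.094 for Ctbp2). Leaving out a sample turned 15 values, from -0.36 to 0.083 for Cabp2 in the apex, -1.06 to 0.64 for Bsn in the base, -0.35 to 0.75 for Bsn by mouse, -1.05 to 0.65 for Bsn and -0.061 to 0.36 for Ctbp2 in controls, -0.37 to 0.23 for Ctbp2 in the cKO, -0.11 to 0.19 for Ctbp2 over both genotypes, and -1.67 to 0.027 for Bsn and -0.52 to 0.079 for Ctbp2 in the difference of effects; the cause was not tested. With the hair cell marker list as reference, Cacna1d (brighter probe set) moved to 0.80 between genotypes in the base and to 0.79 between base and apex in the cKO.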
